A study of Mus musculus with 15 samples.

Results

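The cytochrome P450 genes of families 2 and 4 described here were those of the subfamilies Cyp2a, Cyp2ab, Cyp2d, Cyp2e, Cyp2f, Cyp2g, Cyp2j, Cyp2r, Cyp2s, Cyp2t, Cyp2u, Cyp2w, Cyp4b, Cyp4f, Cyp4v and Cyp4x. They were taken by gene symbol from RNA profiles of mouse liver, with earlier results of these data known. Of 20325 listed genes 40 carried such a symbol, and 29 of these reached 10 or more expected counts in at least 3 of the 15 livers. An expected count is the number of reads that RSEM, a program that shares reads among genes by likelihood, assigned to a gene.

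The livers came from 15 male C57BL/6J mice, an inbred laboratory strain, at 19 weeks of age, in 5 groups of 3. Germ-free (GF) mice lived without microorganisms, and conventionally raised (ConvR) mice had a microbiota from birth. Conventionalized (ConvD) mice were GF up to 15 weeks of age, then received cecal contents of ConvR donors on chow by a single gavage, and were examined 4 weeks later. From 3 weeks of age mice ate chow, with 23.7% of its energy from fat, or a diet rich in fat and sucrose, abbreviated HF/HS, with 44.6% of its energy from fat. The groups were GF chow, ConvR chow, ConvD chow, GF HF/HS and ConvR HF/HS. Mice were caged by group, so that effects of cage or isolator and of group cannot be told apart. Differences are given as log2 fold changes ± standard error, and levels as mean ± SD with n = 3 mice per group throughout. CPM are counts scaled to the library's total times a factor per library estimated over genes (TMM), and allow a gene to be compared between livers. That factor ran from 0.908 in ConvR chow 2 to 1.13 in ConvR HF/HS 2. TPM, as deposited, are scaled by gene length and to the library without this factor, which allows genes to be compared with one another.

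P450 enzymes are haem proteins of the endoplasmic reticulum that insert an oxygen atom into their substrates with electrons passed on by the reductase Por. In liver, family 2 enzymes oxidize drugs, solvents, steroids and arachidonic acid, and family 4 enzymes hydroxylate fatty acids and eicosanoids at or near the end of the chain. Several of these genes are transcribed mainly in hepatocytes near the central vein, as is Cyp2e1, or near the portal vein, as is Cyp2f2, and several depend on sex through the pattern of growth hormone.

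The libraries held 14737578 to 21794811 expected counts, and the 40 genes took 0.858% to 1.46% of them. ConvR chow 1 and 2 stood apart from the other livers by the highest acute phase transcripts. The 12 acute phase genes listed summed to 14804 to 98274 CPM in the ConvR chow livers and to 10889 to 15748 CPM in the others, and 11 of the 12 were higher in ConvR than in GF livers on chow. ConvR chow 3 was raised too for some of them, with Saa1 at 789, Saa2 at 695, Orm2 at 94.1 and Lcn2 at 75.1 CPM, against at most 114, 53.8, 15.2 and 20.1 CPM in the 12 livers of the other groups. Calls of members that use the ConvR chow group are also given without ConvR chow 1 and 2; the remaining liver is then assumed to vary like those of the other groups, and 5 of the 12 acute phase genes are still called between it and the GF chow livers. The relation of expression to gene length also differed, with a rank correlation of -0.451 to 0.0581 in GF and ConvR chow livers and of 0.104 to 0.38 in the other groups. Hepatocyte markers summed to 70113 to 100100 CPM in ConvR chow and to 97398 to 141370 CPM in the other livers, and the albumin gene Alb stood at 36333 and 31494 CPM in ConvR chow 1 and 2 and at 61655 to 98646 CPM in the other 13; their part in the results was not tested. Of 4 markers of lung airway, where Cyp2f2 and Cyp4b1 are also abundant, 3 were at 0 in all 15 livers and the sum stayed at or below 0.110 CPM, and 5 kidney markers summed to at most 0.138 CPM. Kupffer cell markers summed to 222 to 451 CPM and T and B cell markers to 1.75 to 4.96 CPM. Markers of sinusoidal endothelium were called higher on HF/HS for 2 of 5 in ConvR and 3 of 5 in GF mice, against 6.77% and 4.12% of all genes. Of 5 cholangiocyte markers 1 was lower in each of 3 comparisons. These were ConvD with GF (3.34% of all genes lower), ConvD with ConvR on chow (3.24%), and the diets in ConvR mice (7.78%). Of 5 stellate cell markers 1 was higher in ConvR than in GF chow livers (2.56% of all genes). Of 3 tested neutrophil markers 2 were higher in that comparison. All 3 were lower in ConvD than in ConvR chow livers (3.24% of all genes) and on HF/HS in ConvR mice (7.78%). The neutrophil markers S100a8, S100a9 and Prtn3 were highest in ConvR chow 1 and 2. Of 2 tested markers of small intestine 1 was lower in ConvR than in GF chow livers (2.17% of all genes) and 1 higher on HF/HS in ConvR mice (6.77%). Fabp2 of this list stood at 24.0 to 158 CPM, and Vil1, Lct and Alpi at no more than 1.03 CPM in any liver. The 1 tested marker of exocrine pancreas, Cela1, was lower in 4 of the 7 comparisons, in which 0.744% to 7.78% of all genes were called lower. Cela1 stood at 8.46 to 42.3 CPM, and the pancreas markers Cpa1, Pnlip, Ctrb1 and Cel at no more than 0.229 CPM in any liver. The part of these cells in the results was not tested. In whole liver, fewer cells of a type and less RNA per cell cannot be told apart.

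Levels spanned more than 4 orders of magnitude. Cyp2e1, which oxidizes ethanol and acetaminophen, had a median of 5564 TPM and supplied 44.8% to 56.5% of the TPM of all 40 genes in every liver. Cyp2d9, a testosterone hydroxylase that is more abundant in males, followed at a median of 1264 TPM, and Cyp2f2, which oxidizes naphthalene, at 882 TPM. Cyp2d26 (707 TPM), Cyp2d10 (667 TPM) and Cyp2a12 (569 TPM) came next in median level, and their ranges across the livers overlapped one another. Medians between 37.6 and 278 TPM were found for Cyp2j5, Cyp4v3, Cyp2a5, Cyp4f14, Cyp2d40, Cyp2d22, Cyp4f15, Cyp4f13 and Cyp2j6, in that order. Cyp4b1, Cyp2r1, Cyp2u1, Cyp4f17, Cyp2a22, Cyp2d12, Cyp2j9, Cyp2d34, Cyp2d11 and Cyp4f16 lay between 14.4 and 1.71 TPM. The last 4 in the order were Cyp4f18 (0.46 TPM), Cyp2g1 (0.43 TPM), Cyp4f39 (0.24 TPM) and Cyp2s1 (0.19 TPM), which passed the count threshold in 6, 8, 6 and 4 livers. Cyp2s1, Cyp2g1 and Cyp4f39 are known mainly from barrier epithelium, olfactory mucosa and skin, and Cyp4f18 from neutrophils.

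**Figure D1:**
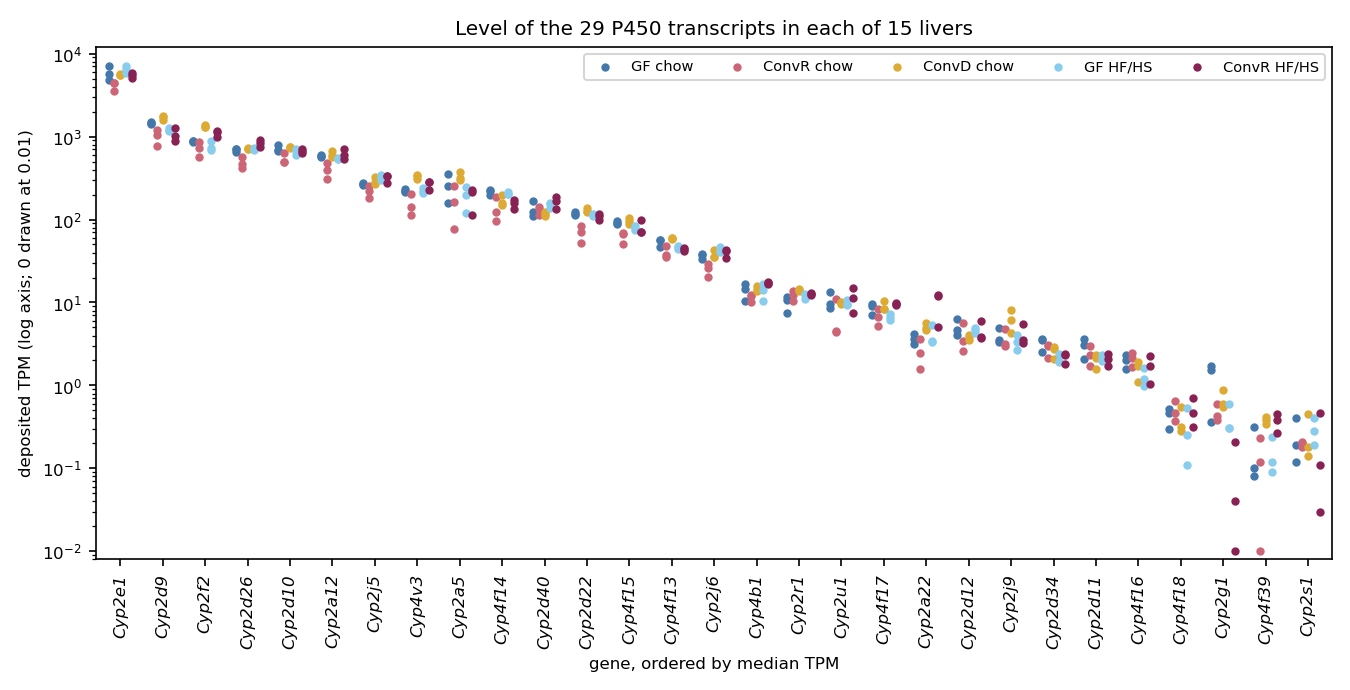
Deposited TPM (log axis) of the 29 genes in each of the 15 livers, coloured by group, with genes ordered by median TPM and values of 0 drawn at 0.01. Cyp2e1 leads with a median of 5564 TPM, and of the last 4 genes only Cyp2g1 passes 1 TPM, in GF chow livers 2 and 3.

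The other 11 genes did not reach the threshold. Cyp2j12-ps, Cyp2j7-ps, Cyp2t4, Cyp2w1, Cyp4f40 and Cyp4x1 had an expected count of 0 in all 15 livers. Cyp2j13 reached at most 9 counts in a liver, Cyp2j8-ps 4, Cyp2ab1 2 and Cyp2j11-ps 1. Cyp2a4, the eleventh, passed 10 counts in 2 livers, both from ConvR HF/HS mice, and is described with its subfamily. A count of 0 in one library still allows up to 3 counts, for counting error alone, so transcripts below that level were not detectable at this depth.

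Some members varied widely between mice of a group. The coefficient of variation within groups, taken as the median over the 5 groups, ran from 5.84% for Cyp2r1 and 5.96% for Cyp2d22 to 60.3% for Cyp2s1. It was 34.8% for Cyp2a5, which had 1640 to 8493 counts per library. The median over the 29 genes was 14.3%, against 9.83% over all 12368 genes tested. By group mean, ConvR chow was the lowest group for 11 of the 29 genes (21.9% of all genes tested), ConvR HF/HS for 10 (22.6%) and GF chow for 1 (23.8%). GF chow was the highest group for 11 of 29 (26% of all genes) and ConvD chow for 7 (14.1%).

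ConvR and GF mice on chow were compared to see which transcripts differed with a microbiota held since birth. Cyp2d22, a Cyp2d enzyme of liver, was the 1 member called lower in ConvR livers, and 0 members were called higher. Over all genes tested, edgeR's quasi-likelihood test called 2.17% lower and 2.56% higher at an adjusted p below 0.05. Cyp2d22 stood at 141, 113 and 161 CPM in the 3 ConvR livers and at 199, 210 and 231 CPM in the 3 GF livers. The groups did not overlap, and the lowest liver was ConvR chow 2. The means were 138 ± 24.0 and 213 ± 16.3 CPM, a log2 fold change of -0.63 ± 0.11 (adjusted p = 0.0133). Of the 29 genes 24 had a log2 fold change below 0, against 50.5% of all genes, and their median was -0.27 against -0.003 for all genes. Next in order of adjusted p came Cyp2j6 (-0.41 ± 0.11, adjusted p = 0.0556), Cyp2d26 (-0.37 ± 0.11, adjusted p = 0.0586) and Cyp2a12 (-0.42 ± 0.13, adjusted p = 0.076), which were not called.

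The 3 ConvR chow livers were not alike in these genes. For the 19 genes with at least 100 counts in every liver, the median log2 ratio to the GF chow mean was -0.36 in ConvR chow 1, -0.50 in ConvR chow 2 and -0.11 in ConvR chow 3. ConvR chow 2 was the lowest of its group for 19 of the 29 members (33.9% of all genes tested) and ConvR chow 3 the highest for 18 (39.4% of all genes). The call of Cyp2d22 ended without ConvR chow 1, with the log2 fold change at -0.64 (adjusted p = 0.0558), and without ConvR chow 1 and 2 together (log2 fold change -0.41, adjusted p = 0.394), and with the 6 libraries fitted alone (-0.62, adjusted p = 0.228). Without ConvR chow 3 the test called 7 members and 13.2% of all genes, and the 7 included Cyp2a12, Cyp2d26, Cyp4f14 and Cyp4v3. The acute phase genes moved with these livers, and their part in the result was not tested.

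**Figure D2:**
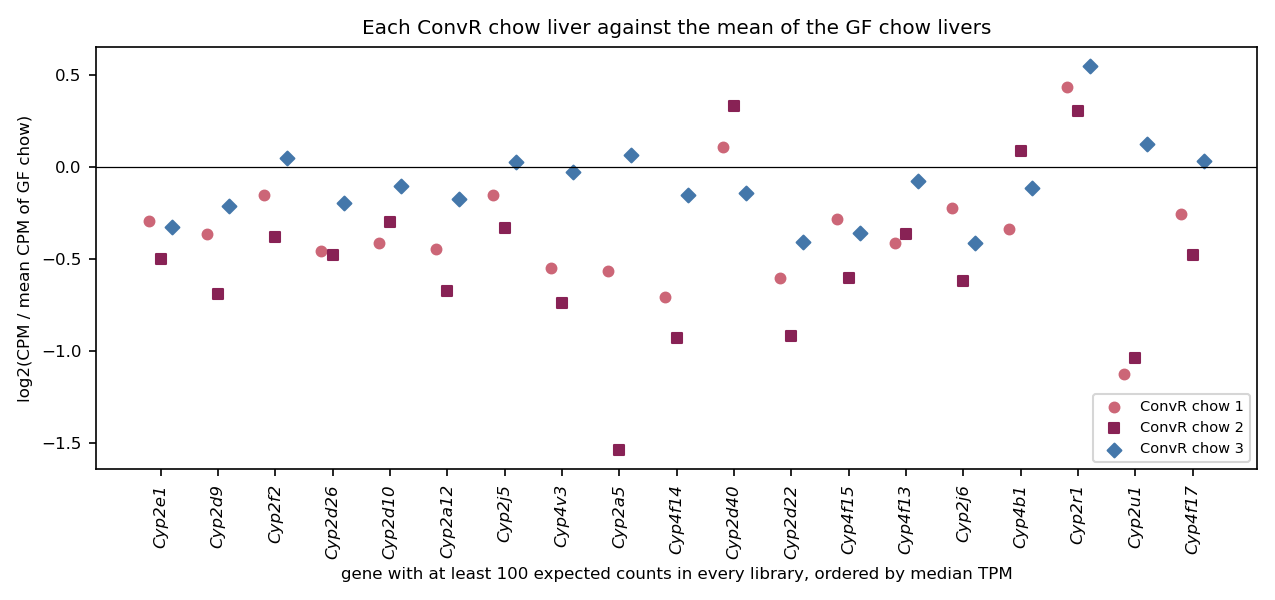
Log2 ratio of CPM in each of the 3 ConvR chow livers to the mean of the 3 GF chow livers, for the 19 genes with at least 100 expected counts in every liver. ConvR chow 1 and 2 lie below the line at 0 for 17 and 16 genes, and ConvR chow 3 for 13.

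In the comparison of ConvD with GF mice on chow, which asks what 4 weeks of a microbiota acquired as an adult changed, 0 of 29 members were called either way. The test called 2.26% of all genes higher and 3.34% lower. In all, 6 members had an unadjusted p below 0.05 (24.3% of all genes), DESeq2 called 1 member (9.39% of all genes) and limma on TPM 2 (7.43%). Cyp2f2 came closest, at 1383, 1469 and 1428 CPM in ConvD livers and 966, 1031 and 1078 CPM in GF livers. These ranges did not overlap, and the log2 fold change was 0.48 ± 0.14 (adjusted p = 0.0592). The median over the members was -0.07, and 19 of 29 were below 0.

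ConvD and ConvR mice on chow both had a microbiota, acquired as adults or from birth. Cyp2f2, Cyp4v3 and Cyp2d22 were called higher in ConvD livers and 0 members lower, with 2.2% of all genes called higher and 3.24% lower. Cyp4v3, a fatty acid hydroxylase whose human counterpart is mutated in a crystalline retinal dystrophy, stood at 598, 532 and 591 CPM in ConvD livers and at 291, 255 and 417 CPM in ConvR livers. Every ConvD liver was above every ConvR liver, and the means were 574 ± 36.1 and 321 ± 85.2 CPM (log2 fold change 0.84 ± 0.17, adjusted p = 0.0168). Of its runs of 50 coding bases 13.6% also occur in the gene Gm45753 of the GENCODE M21 annotation. Whether that gene was in the reference used for the counts is not known. Cyp2d22 stood at 209, 223 and 207 CPM in ConvD livers (log2 fold change 0.63 ± 0.11, adjusted p = 0.0113 against the ConvR values above). Cyp2f2 stood at 922, 789 and 1062 CPM in the ConvR livers, below each ConvD liver, with means of 1427 ± 43.0 and 924 ± 137 CPM (log2 fold change 0.63 ± 0.14, adjusted p = 0.0255).

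Across the members 22 of 29 log2 fold changes were above 0 in this comparison, and the median was 0.26 against -0.01 for all genes. For 14 members every ConvD liver was above every ConvR liver, against 15.2% of all genes tested. The ConvR chow libraries are shared with the comparison of ConvR with GF mice, so the values of both comparisons are not independent. Leaving out ConvR chow 1 and 2 together ended all 3 calls, with log2 fold changes of 0.41 for Cyp2d22 (adjusted p = 0.275), 0.43 for Cyp2f2 (adjusted p = 0.449) and 0.46 for Cyp4v3 (adjusted p = 0.434). Leaving out ConvD chow 1, 2 or 3 left 0, 0 and 2 called members, with 0.478%, 0.12% and 2.19% of all genes called. Leaving out ConvR chow 1, 2 or 3 left 1, 1 and 8, with 0.847%, 0.431% and 12.8% of all genes called. Where these calls ended by edgeR without 1 library, the log2 fold change was 0.59 and 0.64 for Cyp2d22, 0.52 to 0.65 for Cyp2f2 and 0.69 to 0.89 for Cyp4v3. On the 6 libraries alone it was 0.63, 0.63 and 0.84, with an adjusted p of 0.0623 for Cyp2d22, 0.0645 for Cyp2f2 and 0.0632 for Cyp4v3. Of the 12 acute phase genes 11 were lower in ConvD than in ConvR chow livers, and their part in these calls was not tested.

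On HF/HS, where ConvR and GF mice were compared in the same way, 0 members were called; 0.889% of all genes were called higher and 0.744% lower. In all, 10 members had an unadjusted p below 0.05 (15.2% of all genes), DESeq2 called 3 (4.09% of all genes) and limma on TPM 2 (6.4%). The closest were 3 members. Cyp2a22 stood at 11.8 ± 4.47 CPM in ConvR and 5.61 ± 1.59 CPM in GF livers (log2 fold change 1.07 ± 0.30, adjusted p = 0.086). Cyp4f14, a leukotriene hydroxylase, stood at 186 ± 31.7 and 288 ± 13.0 CPM (-0.63 ± 0.18, adjusted p = 0.0944). Cyp2j6, an arachidonic acid epoxygenase, stood at 78.4 ± 4.62 and 99.3 ± 6.80 CPM (-0.34 ± 0.11, adjusted p = 0.147). The median over the members was -0.16, and the ranges of 6 members lay below and of 1 above those of GF livers, against 14.7% and 12.7% of all genes.

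The diets were compared within ConvR mice, and here 4 members were called. Cyp2a22 and Cyp2d26 were higher on HF/HS and Cyp2d34 and Cyp2g1 lower, while 6.77% of all genes were called higher and 7.78% lower. Cyp2a22 stood at 15.1, 13.5 and 6.69 CPM on HF/HS and at 3.85, 2.65 and 5.61 CPM on chow. The third HF/HS liver was close to the highest chow liver, but the groups did not overlap, and the log2 fold change was 1.54 ± 0.31 (adjusted p = 0.00461). Its call held without any 1 of the 6 libraries, and ended without ConvR chow 1 and 2 together (1.07, adjusted p = 0.18). Cyp2d26, an abundant Cyp2d enzyme, stood at 805, 688 and 712 CPM on HF/HS and 530, 523 and 635 CPM on chow (log2 fold change 0.39 ± 0.11, adjusted p = 0.0258).

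The 2 genes called lower on HF/HS in ConvR mice were weakly expressed. Cyp2d34 stood at 2.12, 1.88 and 1.68 CPM on HF/HS and 3.41, 2.59 and 3.44 CPM on chow, without overlap (log2 fold change -0.73 ± 0.20, adjusted p = 0.0263). Cyp2g1 had 5, 0 and 1 counts on HF/HS and 14, 10 and 8 on chow (log2 fold change -2.68 ± 0.79, adjusted p = 0.0358). With so few counts the size of that difference is uncertain. Without ConvR chow 1 and 2 the log2 fold change was 0.21 for Cyp2d26 (adjusted p = 0.405), -0.86 for Cyp2d34 (adjusted p = 0.112) and -2.32 for Cyp2g1 (adjusted p = 0.302). Leaving out 1 library ended the Cyp2d26 call for ConvR chow 1, ConvR chow 2 and ConvR HF/HS 1, with log2 fold changes of 0.32 to 0.34 (adjusted p from 0.0929 to 0.0972). It ended the Cyp2d34 call for ConvR chow 1 and 3 and ConvR HF/HS 2 and 3, at -0.72 to -0.65 (adjusted p from 0.0626 to 0.0888). It ended the Cyp2g1 call for ConvR chow 1 and 2 and ConvR HF/HS 2 and 3, at -2.70 to -2.17 (adjusted p from 0.0803 to 0.113). The number of members called became 1, 2 and 8 on leaving out ConvR chow 1, 2 and 3 respectively, with 8.93%, 8.36% and 17.1% of all genes called. It was 3 without each of the ConvR HF/HS livers in turn, with 9.77%, 7.87% and 12.3% of all genes, and the 3 included Cyp4v3 without ConvR HF/HS 2 and Cyp2d9 without ConvR HF/HS 3. All 12 acute phase genes listed were lower on HF/HS in ConvR mice, and their part in these results was not tested.

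**Figure D3:**
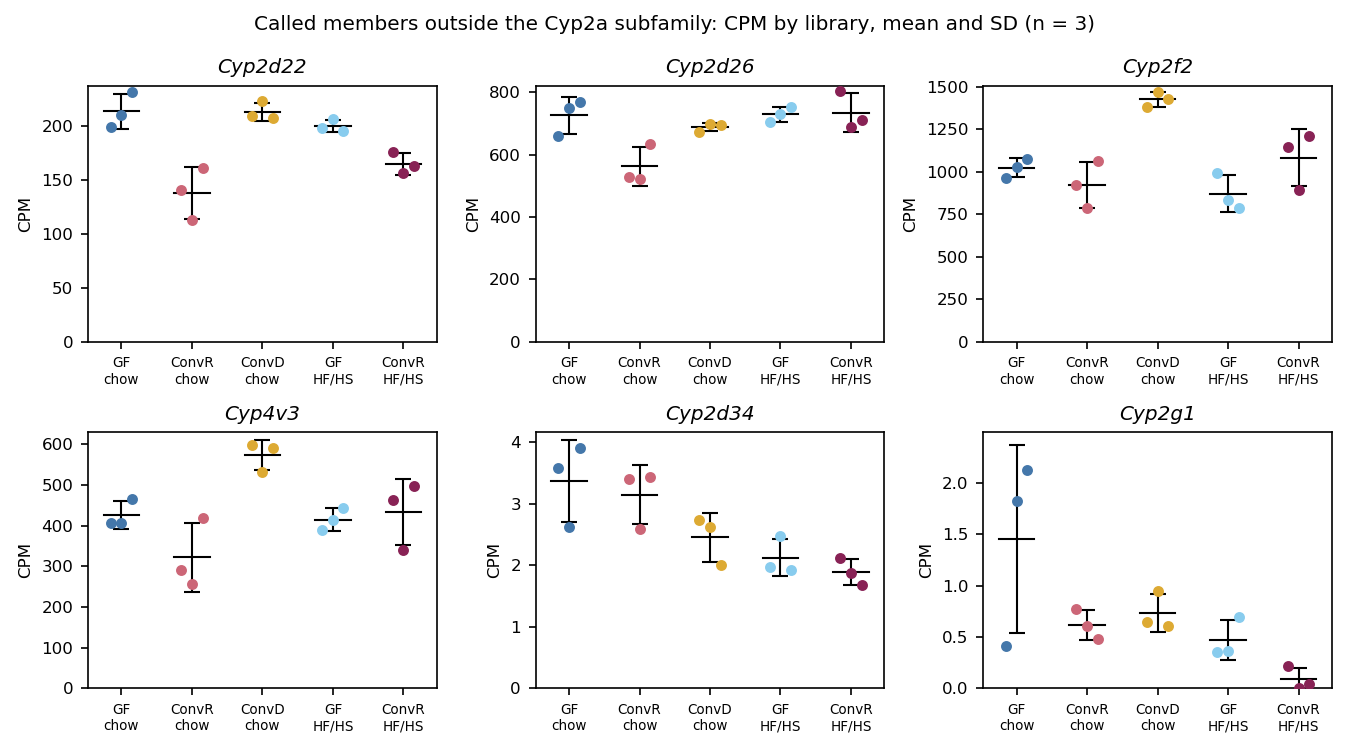
CPM of the 6 called genes outside the Cyp2a subfamily in each library, with group mean and SD (n = 3) and vertical axes from 0. Cyp4v3 and Cyp2f2 are highest in the 3 ConvD chow livers (at least 532 and 1383 CPM), Cyp2d22 and Cyp2d26 have their lowest mean in ConvR chow, and Cyp2d34 and Cyp2g1 in ConvR HF/HS.

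In GF mice the same change of diet gave 0 called members, with 4.12% of all genes called higher and 5.45% lower. In all, 6 members had an unadjusted p below 0.05 (26.2% of all genes), DESeq2 called 1 (12.4% of all genes) and limma on TPM 0 (5.05%). Cyp2d34 was just outside the threshold, at 1.97, 2.47 and 1.92 CPM on HF/HS and 3.58, 2.63 and 3.92 CPM on chow (log2 fold change -0.67 ± 0.20, adjusted p = 0.0501). That value lies close to the one in ConvR mice, and the interaction for this gene was -0.06 ± 0.28 on the log2 scale (adjusted p = 0.947). Cyp2g1 stood at 0.474 ± 0.195 and 1.46 ± 0.916 CPM (-1.67 ± 0.54, adjusted p = 0.0644).

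The interaction term tests whether the difference between diets differed between ConvR and GF mice. It was called for 0 members and 0% of all genes in either direction. In all, 6 members had an unadjusted p below 0.05 (12.7% of all genes), DESeq2 called 0 members (0.881% of all genes) and limma on TPM 7 (9.75%). Cyp2a22 had the smallest adjusted p, with an interaction of 1.48 ± 0.43 on the log2 scale (adjusted p = 0.221). Cyp2r1, the vitamin D hydroxylase of liver, followed at -0.55 ± 0.19 (adjusted p = 0.28) and Cyp4f17 at 0.52 ± 0.20 (adjusted p = 0.315).

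**Figure D4:**
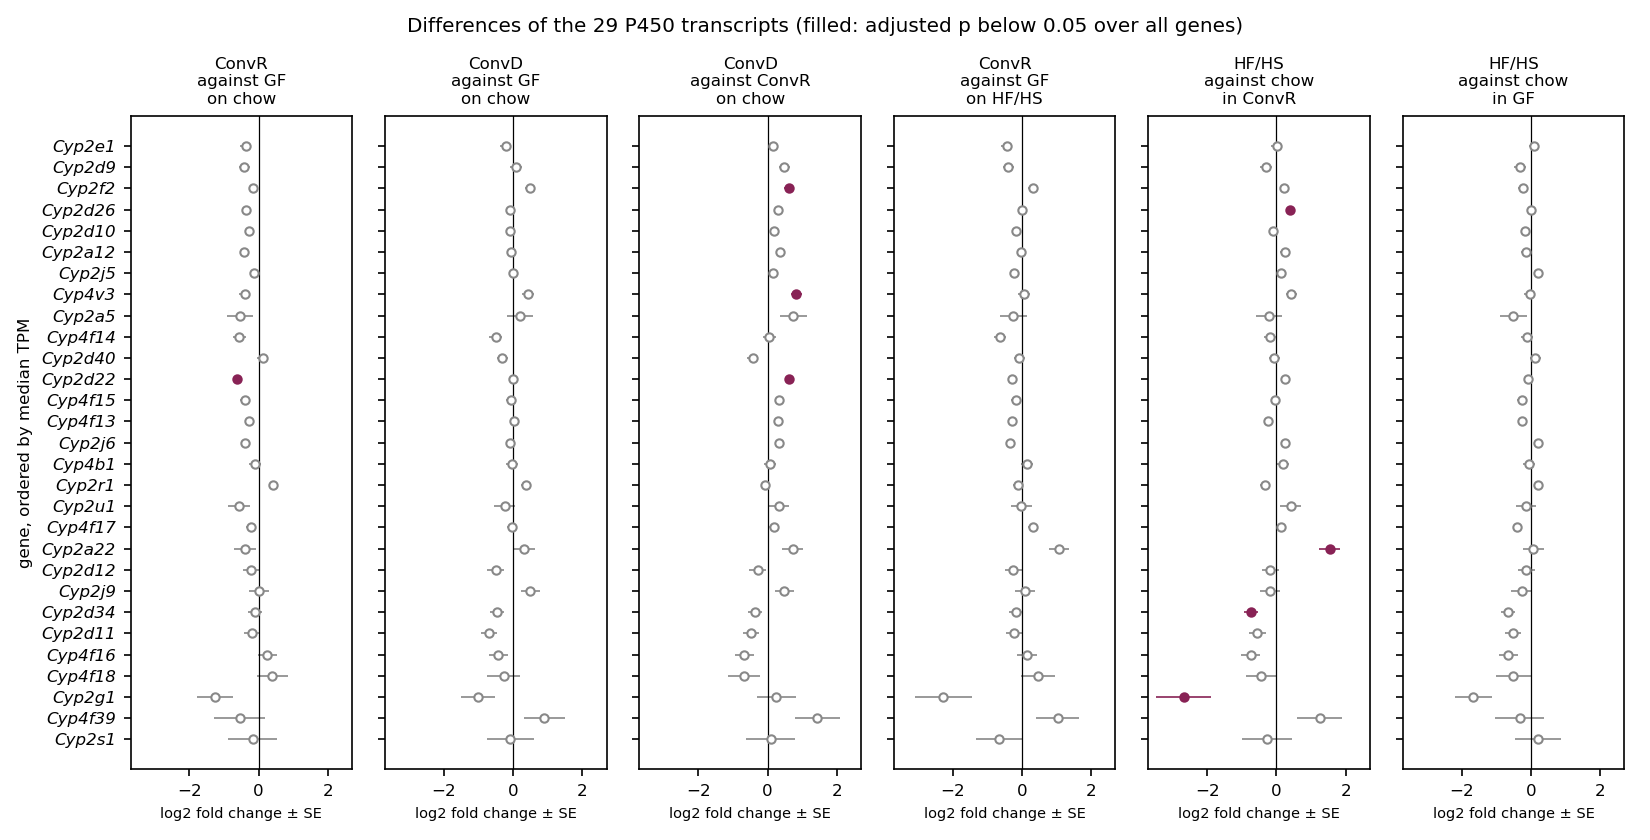
Log2 fold change (first-named group minus second) ± standard error of the 29 genes in the 6 pairwise comparisons, ordered by median TPM, with filled points for an adjusted p below 0.05 over all genes. Filled points number 1, 0, 3, 0, 4 and 0 from left to right, and standard errors widen toward the weakly expressed genes at the bottom.

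Among the enzymes of small solvents and drugs, Cyp2e1 stood at 5208, 7886 and 6686 CPM in GF chow livers and at 5380, 4665 and 5271 CPM in ConvR chow livers. It stood at 6183, 7125 and 7732 CPM in GF HF/HS livers and at 5221, 5083 and 5137 CPM in ConvR HF/HS livers. On HF/HS the GF and ConvR ranges did not overlap, and on chow they did. The log2 fold change of ConvR against GF was -0.45 ± 0.16 on HF/HS (adjusted p = 0.167) and -0.37 ± 0.16 on chow (adjusted p = 0.174), and neither was called. Cyp4b1, which activates some lung toxicants, stood between 12.4 and 19.7 CPM in all livers with no log2 fold change beyond 0.20 in the 6 pairwise comparisons. Por, which reduces these enzymes, was lower on HF/HS in ConvR mice (log2 fold change -0.91 ± 0.22, adjusted p = 0.0125). It stood at 226, 242 and 123 CPM on chow and 98.8, 123 and 93.2 CPM on HF/HS, so that the chow livers with the most Por were ConvR chow 1 and 2. Without ConvR chow 1 or 2 alone the value was -0.80 (adjusted p = 0.0531) and -0.74 (adjusted p = 0.0614), and without both -0.23 (adjusted p = 0.594). A list of electron transfer and haem genes also held the haem oxygenases Hmox1 and Hmox2, which break haem down. Of its 14 tested genes 1 was higher and 2 lower in that comparison, against 6.77% and 7.78% of all genes. These were Cyb5r3 (0.62 ± 0.13) against Por and Hmox2 (-0.46 ± 0.11). Without ConvR chow 1 and 2 neither was called (0.47, adjusted p = 0.198, and -0.27, adjusted p = 0.327). The Hmox2 call also ended without ConvR chow 2 or ConvR HF/HS 2, while the Cyb5r3 call held without any 1 of the 6 libraries. In GF mice, too, 1 of the 14 was higher on HF/HS and 2 were lower, against 4.12% and 5.45% of all genes. Cyb5r3 stood at 662, 632 and 575 CPM in GF HF/HS livers and at 340, 392 and 408 CPM in GF chow livers.

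The Cyp2a subfamily held 2 pairs of near-identical genes, and the sequences show how few positions separate the reads of each pair. Cyp2a5, the coumarin hydroxylase of mouse liver, and Cyp2a4, a steroid hydroxylase more abundant in females, differ at 23 of 1482 coding bases, with up to 216 bases in a row without a difference. In the stretch of 60 coding bases with the most differences, capitals mark the bases that differ, from position 596 to 655 counted from the A of the start codon in the GENCODE M21 transcripts.
Cyp2a5: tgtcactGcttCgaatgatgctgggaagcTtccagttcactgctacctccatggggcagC
Cyp2a4: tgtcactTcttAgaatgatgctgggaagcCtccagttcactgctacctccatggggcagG
Cyp2a22 and Cyp2a12, a steroid hydroxylase that also hydroxylates secondary bile acids, differ at 45 of 1476 coding bases. Their stretch with the most differences, marked in the same way, runs from position 1277 to 1336.
Cyp2a22: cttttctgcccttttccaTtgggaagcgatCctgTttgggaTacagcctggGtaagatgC
Cyp2a12: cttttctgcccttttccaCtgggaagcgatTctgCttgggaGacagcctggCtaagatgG

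Of all runs of 50 coding bases, 51.6% in Cyp2a5, 40.5% in Cyp2a4 and 30.1% in both Cyp2a12 and Cyp2a22 also occur in a GENCODE M21 transcript of another gene. The part shared within the pair was 38.2% for Cyp2a5 and Cyp2a4 and 30.1% for Cyp2a12 and Cyp2a22. RSEM had to share reads common to a pair by likelihood, so that the split within each pair is uncertain. The promoters are shown because members of a pair with closely similar promoters had unlike values. The 200 bases before the start of transcription were taken from RefSeq on GRCm38.p6. Capitals mark bases that differ from, or have no partner in, the window of the other gene. They lie at chr7:26835139-26835338 on the plus strand for Cyp2a5 and at chr7:26306992-26307191 on the plus strand for Cyp2a4.
Cyp2a5: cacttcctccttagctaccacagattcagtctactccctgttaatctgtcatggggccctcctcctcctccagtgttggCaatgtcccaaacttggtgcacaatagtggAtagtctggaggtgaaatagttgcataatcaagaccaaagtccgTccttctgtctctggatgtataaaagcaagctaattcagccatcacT
Cyp2a4: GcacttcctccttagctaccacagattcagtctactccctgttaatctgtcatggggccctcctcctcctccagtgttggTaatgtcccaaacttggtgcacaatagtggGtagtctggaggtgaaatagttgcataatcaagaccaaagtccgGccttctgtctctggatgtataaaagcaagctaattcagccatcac
The windows of Cyp2a22, at chr7:26939387-26939586 on the minus strand, and Cyp2a12, at chr7:27028890-27029089 on the plus strand, follow.
Cyp2a22: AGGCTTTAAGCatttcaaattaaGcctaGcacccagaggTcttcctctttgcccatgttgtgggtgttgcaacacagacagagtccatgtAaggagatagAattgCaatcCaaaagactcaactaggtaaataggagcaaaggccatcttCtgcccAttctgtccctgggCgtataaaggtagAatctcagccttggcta
Cyp2a12: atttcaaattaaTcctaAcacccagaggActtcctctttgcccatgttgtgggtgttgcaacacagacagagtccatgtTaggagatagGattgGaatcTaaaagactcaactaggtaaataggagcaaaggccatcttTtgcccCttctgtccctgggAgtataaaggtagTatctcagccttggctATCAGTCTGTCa
Aligned, the promoters of Cyp2a5 and Cyp2a4 were identical at 97.5% of columns and those of Cyp2a22 and Cyp2a12 at 84.4%.

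A pair of motifs was searched on both strands of these windows. TATAAA was present in each of the 4 Cyp2a windows, in 10 of the 23 reported members with an entry (43.5%) and in 9.96% of 32851 mouse promoters. TTCNNNGAA, the letters bound by STAT factors, was present in Cyp4b1 and Cyp4f13, 8.7% of the 23, and in 5.49% of all promoters. Neither of these 2 genes was called. The letters of the 2 motifs do not overlap, and a match describes the window and not a bound site.

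Cyp2a5 itself was uneven within groups, at 170, 280 and 411 CPM in GF chow, 194, 98.8 and 300 CPM in ConvR chow and 301, 312 and 380 CPM in ConvD chow livers. It stood at 127, 213 and 267 CPM in GF HF/HS and 210, 185 and 115 CPM in ConvR HF/HS livers. Every ConvD liver was above every ConvR chow liver, with a log2 fold change of 0.74 ± 0.38 that was not called (adjusted p = 0.259). Cyp2a12 stood at 589, 612 and 662 CPM in GF chow and 456, 390 and 551 CPM in ConvR chow livers. It stood at 555 to 653 CPM in ConvD chow, 546 to 573 CPM in GF HF/HS and 493 to 629 CPM in ConvR HF/HS livers. The ConvR chow range lay below those of GF chow and ConvD chow, without a call (adjusted p = 0.076 and 0.109). For Cyp2a22 the log2 fold change of HF/HS against chow in GF mice was 0.06 ± 0.31, at 4.71, 4.68 and 7.45 CPM against 4.40, 5.31 and 6.24 CPM.

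Cyp2a4 had 60.45, 63.18 and 9.52 expected counts in the ConvR HF/HS livers, 3.13 in ConvD chow 2, 2.15 in GF HF/HS 3 and 0 in the other 10. Its share of the counts of Cyp2a4 and Cyp2a5 together was 1.23%, 1.66% and 0.376% in the 3 ConvR HF/HS livers and at most 0.0469% elsewhere. Each of the 3 ConvR chow livers had 0 counts. Against ConvR chow mice, with 0 counts, Cyp2a4 was at least 34.8-fold higher in ConvR HF/HS mice, taking 3 counts over the group as the floor, and at least 11.2-fold higher against ConvR chow 3 alone with the same floor. These bounds cover counting error alone and not the spread between mice. Against GF HF/HS mice, with 2 counts after rounding, the ratio was 56.9, with an exact 95% interval of 15.5 to 475 for counting error alone. Cyp2a4 passed no filter on low counts and so has no test in the main analysis. With all genes of a count above 0 kept, its adjusted p by edgeR was 0.00365 for HF/HS against chow in ConvR mice. It was 0.0256 for ConvR against GF mice on HF/HS and 0.616 for the diets in GF mice, and the interaction was not called. Cyp2a4 stood out by its counts in ConvR HF/HS livers, so these tests of the same livers add no support of their own.

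**Figure D5:**
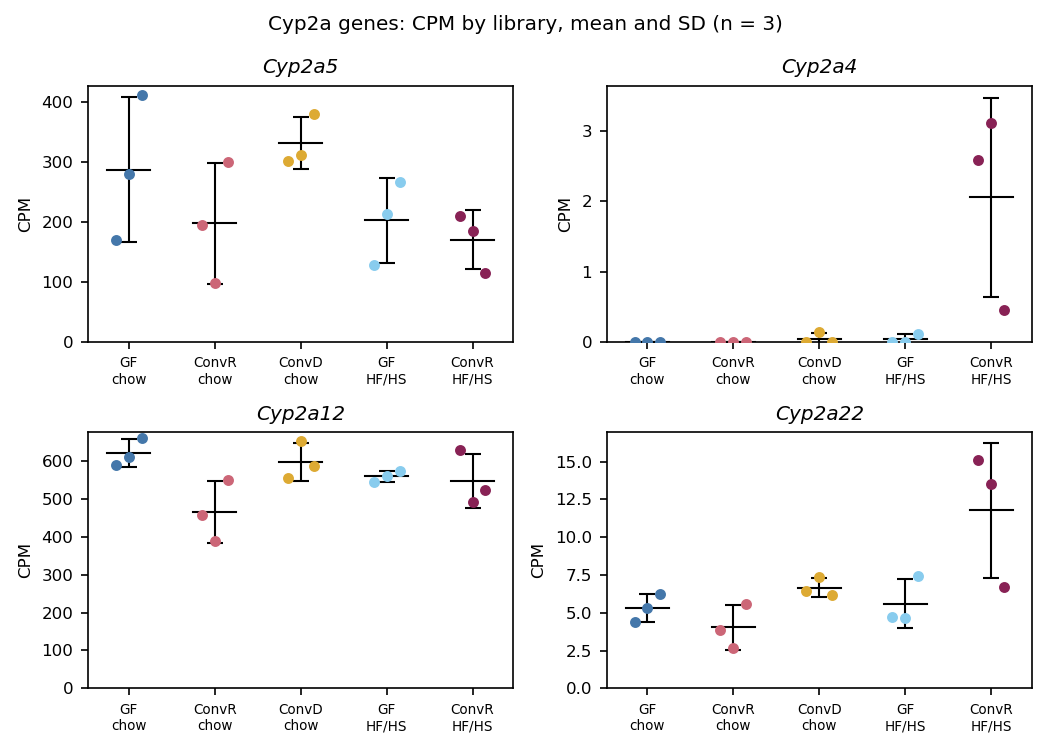
CPM of 4 Cyp2a genes in each library, with group mean and SD (n = 3). Cyp2a4 and Cyp2a22 are highest in ConvR HF/HS livers 1 and 2 (Cyp2a22 at 15.1 and 13.5 CPM), and Cyp2a5 and Cyp2a12 of the same livers lie within the range of the other groups.

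Cyp2a4 and Cyp2d9 belong to the hepatic genes that depend on sex, and other such genes were examined as 2 lists. Of 12 female-biased genes 5 were tested and 7 were not. In ConvR mice 3 of the 5, Acot3, Cyp2b9 and Cyp4a14, were called higher on HF/HS, against 6.77% of all genes. Of 10 male-biased genes 4, Selenbp2 (-4.06 ± 0.61), Moxd1, Serpina1e and Cyp7b1, were called lower, against 7.78% of all genes, and 6 were not called. Without ConvR chow 1 and 2, Selenbp2 alone of the male-biased genes was called (-4.14, adjusted p = 0.016), as was 1 female-biased gene that is not among the 3, Cyp17a1. In GF mice 2 of the 5 were higher and 2 of the 10 lower, against 4.12% and 5.45% of all genes. The summed male-biased genes ran from 22935 to 27950 CPM in ConvR chow and from 6186 to 14055 CPM in ConvR HF/HS livers, and the 12 female-biased genes from 59.4 to 239 CPM and from 588 to 1031 CPM. The part of these genes in the values of Cyp2a4 was not tested. Cyp2d9, which is male-biased itself and in neither list, stood at 895, 728 and 1226 CPM in ConvR HF/HS livers and 1204, 960 and 1338 CPM in ConvR chow livers. These overlap, and the difference was not called (log2 fold change -0.30 ± 0.17, adjusted p = 0.259). On TPM the value was 0.08, so that its sign depended on the scale. Both values lay below the median of all genes, which was -0.02 on counts and 0.30 on TPM.

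The other Cyp2d genes, which oxidize basic drugs and steroids, had few differences. Cyp2d10 stood at 627 ± 68.9 CPM in ConvR chow, 754 ± 40.2 CPM in GF chow and 713 ± 6.30 CPM in ConvD chow livers, and was not called in any comparison. Cyp2d40 was the member with the clearest opposite direction to the rest between ConvD and ConvR chow, at 73.6, 75.7 and 71.1 CPM against 98.7, 115 and 82.9 CPM. Its groups did not overlap, and the log2 fold change of -0.43 ± 0.16 was not called (adjusted p = 0.125). Cyp2d11 and Cyp2d12 stood at no more than 3.58 and 6.40 CPM in any liver and had no call. Cyp2d9, Cyp2d10, Cyp2d11 and Cyp2d12 share 18.9% to 43.4% of their runs of 50 bases with other genes, against 11.5% for Cyp2d22 and 12% for Cyp2d26. Summed, Cyp2d counts stood at 2604 ± 301 CPM in ConvR chow and 3347 ± 117 CPM in GF chow livers (log2 fold change -0.36 ± 0.13, adjusted p = 0.115), and the sum was not called in any comparison. Without ConvR chow 3 that difference was -0.46 and passed the threshold (adjusted p = 0.0284), as did ConvD against ConvR chow at 0.45 (adjusted p = 0.0314). Without ConvR chow 1 and 2 they were -0.19 and 0.19 (adjusted p = 0.724 and 0.743).

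Cyp2j epoxygenases make signalling lipids from arachidonic acid. Their median coefficients of variation within groups were 8.01% for Cyp2j5, 10.5% for Cyp2j6 and 23.5% for Cyp2j9. Cyp2j5 ranged from 513 to 804 CPM over all livers, with the 3 GF HF/HS livers (685, 757 and 804 CPM) above the 3 GF chow livers (603, 662 and 669 CPM). That difference was 0.22 ± 0.11 on the log2 scale (adjusted p = 0.244). Cyp2j6 had its lowest mean in ConvR chow, at 74.7, 56.5 and 65.4 CPM against 76.9, 88.9 and 95.0 CPM in GF chow livers, without overlap. Cyp2j9 stood between 3.17 and 9.19 CPM, and the Cyp2j sum was not called in any comparison.

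The Cyp4f enzymes shorten the action of leukotrienes and other eicosanoids by hydroxylating them. Cyp4f14, the most abundant, stood at 276, 327 and 332 CPM in GF chow and 278, 283 and 302 CPM in GF HF/HS livers. It stood at 191, 164 and 280 CPM in ConvR chow, 208, 256 and 196 CPM in ConvD chow and 205, 149 and 203 CPM in ConvR HF/HS livers. Of the 9 livers with a microbiota, 8 were below the lowest GF liver, and the exception was ConvR chow 3. The log2 fold change against GF mice was -0.56 ± 0.18 in ConvR chow (adjusted p = 0.0835), -0.50 ± 0.18 in ConvD chow (adjusted p = 0.107) and -0.63 ± 0.18 in ConvR HF/HS mice (adjusted p = 0.0944), so that the gene was called in none of the 3. The first 2 of these share the GF chow libraries. Cyp4f15 stood at 104, 83.6 and 98.8 CPM in ConvR chow and 127, 124 and 129 CPM in GF chow livers, without overlap (-0.41 ± 0.13, adjusted p = 0.0768).

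Cyp4f13 stood at 40.5 ± 4.27 CPM in ConvR HF/HS livers and between 48.4 and 59.6 CPM in the other group means. Its log2 fold change of HF/HS against chow in ConvR mice, -0.26 ± 0.10 on counts, was 0.14 on TPM, so that its sign depended on the scale. Both values lay below the median of all genes, which was -0.02 on counts and 0.30 on TPM. The Cyp4f sum had a log2 fold change of -0.47 ± 0.14 in ConvR against GF mice on chow (adjusted p = 0.0692) and of -0.45 ± 0.14 on HF/HS (adjusted p = 0.129). Without ConvR chow 3 the first of these was -0.64 and past the threshold (adjusted p = 0.00661), and without ConvR chow 1 and 2 it was -0.19 (adjusted p = 0.733). Cyp4f16 shares 36.6% of its runs of 50 bases with other genes, mostly Cyp4f37, which is not among the 40. Cyp4f18 stood at 0.116 to 0.844 CPM, and neutrophil markers summed to 5.01 to 49.9 CPM in ConvR chow livers and to 0.931 to 6.81 CPM in the others.

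Among members with other roles, Cyp2r1 stood at 14.1, 12.8 and 15.2 CPM in ConvR chow and 7.64, 12.0 and 11.6 CPM in GF chow livers. Every ConvR chow liver was above every GF chow liver, and the log2 fold change of 0.43 ± 0.14 was not called (adjusted p = 0.0805). On HF/HS the means were 11.1 ± 0.485 CPM in ConvR and 12.1 ± 0.707 CPM in GF livers (-0.13 ± 0.13 on counts and 0.08 on TPM). Its difference between diets in ConvR mice, -0.34 ± 0.13 on counts, was 0.06 on TPM. The median of all genes on TPM was 0.16 in the first of these comparisons and 0.30 in the second. Cyp2u1, a hydroxylase of long-chain fatty acids, stood at 7.37, 7.83 and 17.5 CPM in ConvR chow livers, where the third liver stood apart from the others, and between 12.7 and 20.4 CPM in GF chow livers.

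Regulators of these genes and markers of the lobule were examined as lists. Of all genes 2.56% were called higher and 2.17% lower in ConvR against GF mice on chow. Of 21 tested regulators of hepatic P450 genes, 1 was called there, Stat5b, which relays growth hormone signals (log2 fold change -0.63 ± 0.16, adjusted p = 0.0408). That call ended without GF chow 1 (-0.36, adjusted p = 0.0988) and without any 1 of the 3 ConvR chow livers (-0.70 to -0.56, adjusted p from 0.0548 to 0.147). Between diets in ConvR mice 2 were higher, Ppara (0.83 ± 0.16) and Nfe2l2 (0.42 ± 0.09), and Nr1h4 was lower (-0.44 ± 0.13). Of all genes 6.77% were called higher and 7.78% lower in that comparison. The Nr1h4 call ended without any 1 of the 6 livers (-0.49 to -0.41), and without ConvR chow 1 and 2 together Ppara, Nfe2l2 and Nr1h4 were at 0.77, 0.35 and -0.48 and not called (adjusted p = 0.0816, 0.184 and 0.171). In GF mice Ppara alone of the 21 was called (0.94 ± 0.16), with 4.12% of all genes called higher and 5.45% lower. Of 10 periportal genes 2 were higher in ConvD than in ConvR chow livers, as was Cyp2f2, and as were 2.2% of all genes. They were Hal (0.93 ± 0.24) and Ass1 (0.72 ± 0.19), with a median of 0.41 over the 10. Leaving out any 1 of the 6 livers other than ConvR chow 3 ended both calls (0.77 to 0.99 for Hal and 0.62 to 0.80 for Ass1), and without ConvR chow 1 and 2 the values were 0.58 and 0.50 (adjusted p = 0.581 and 0.547). Of 10 pericentral genes 0 were called in that comparison, with a median of -0.01. Between diets 1 of the 10 was higher and 1 lower in ConvR mice (median -0.15, with 6.77% and 7.78% of all genes called). In GF mice 0 were higher and 3 lower (median -0.08, with 4.12% and 5.45% of all genes called). Cyp1a2 of this list, a pericentral P450 outside these subfamilies, was lower on HF/HS in mice of both kinds. Its log2 fold changes were -1.60 ± 0.14 in ConvR and -1.08 ± 0.14 in GF livers. Both calls held without any 1 library, and the ConvR value was -1.77 without ConvR chow 1 and 2. Cyp2e1, pericentral too, had log2 fold changes of 0.01 ± 0.16 and 0.09 ± 0.16 in these comparisons and was not called.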

How the data were processed

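Per the submitters' processing notes, reads were handled with Bowtie2 (version not given) and RSEM 1.2.23 on mm9; the libraries were stranded and poly(A)-selected, per the labels' protocols. The deposited files gave for each gene and library the authors' expected count, TPM and gene length. Expected counts were rounded to whole numbers. With edgeR 4.0.16 (R 4.3.3), genes passing filterByExpr (minimum count 10) were scaled by TMM and fitted over all 15 libraries with a mean per group (10 residual degrees of freedom, biological coefficient of variation 0.149). The quasi-likelihood F test was applied to 7 comparisons, with Benjamini-Hochberg adjustment over 12368 genes, and a gene was called at an adjusted p below 0.05. The standard error is the absolute log2 fold change divided by the square root of F. Within groups, libraries correlated at 0.968 to 0.992, and no pair was identical.

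Alternatives were DESeq2 1.42.0 size factors and Wald test, no filter, limma 3.58.1 on log2(TPM + 1), a replicate block, removal of the gene length trend, the compared groups alone, each library left out, and ConvR chow 1 and 2 left out. The test was checked on simulated data. All members with 10 or more counts in at least 3 libraries were named. The members and gene lists were chosen with earlier results of these data known. Lists covered electron transfer and haem, regulators, pericentral, periportal, male-biased, female-biased and acute phase genes, and markers of hepatocytes, cholangiocytes, Kupffer cells, sinusoidal endothelium, stellate cells, neutrophils, T and B cells, lung airway, kidney, exocrine pancreas and small intestine. For list genes, leaving out libraries was chosen after seeing the data. Coding sequences came from GENCODE M21 and promoters from RefSeq, both on GRCm38, matched for 36 and 29 of the 40 genes; no coordinate of the mm9 build was used.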

Additional observations from a re-analysis of the deposited data

How the results depend on the processing

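The counts of called members depended on the test and on single libraries, and the share of all genes called moved with them; it is given in parentheses. For ConvR against GF on chow (1 called) DESeq2's Wald test called 6 (8.49%), limma on TPM 10 (7.59%), the fit with the length trend removed 2 (4.88%), and both the 6 libraries alone (0%) and the fit without ConvR chow 1 and 2 (0.094%) called 0; leaving out 1 library gave 0 to 7 (0.367% to 13.2%). For ConvD against GF on chow (0) the Wald test called 1 (9.39%) and limma on TPM 2 (7.43%), and leaving out 1 library gave 0 to 1 (0.629% to 7.67%). For ConvD against ConvR (3) the Wald test called 6 (9.06%), limma on TPM 16 (30.1%), the libraries alone 0 (0.7%) and the fit without ConvR chow 1 and 2 called 0 (0.047%), with 0 to 8 (0.12% to 12.8%) on leaving out 1 library. For ConvR against GF on HF/HS (0) the Wald test called 3 (4.09%), limma on TPM 2 (6.4%) and the libraries alone 1 (3.72%), with 0 to 1 (0.128% to 2.24%) on leaving out 1 library. For HF/HS against chow in ConvR mice (4) limma on TPM called 13 (49.3%), the libraries alone 1 (6.93%) and the fit without ConvR chow 1 and 2 called 0 (2.69%), with 1 to 8 (7.87% to 17.1%) on leaving out 1 library. In GF mice (0) DESeq2's size factors and its Wald test each called 1 (9.73% and 12.4%), with 0 to 1 (2.4% to 11%) on leaving out 1 library. For the interaction (0) limma on TPM called 7 (9.75%), with 0 to 1 (0% to 3.47%) on leaving out 1 library. On TPM the median log2 change of all genes was -0.10 for ConvR against GF on chow, 0.21 for ConvD against ConvR, 0.16 for ConvR against GF on HF/HS, 0.30 for HF/HS against chow in ConvR mice and 0.27 for the interaction, and that of the members -0.41, 0.43, 0.04, 0.31 and 0.34. Of the 203 log2 fold changes of the 29 members in 7 comparisons, 41 changed sign on TPM, 10 with the length trend removed and at most 2 under the other settings that keep all libraries; without ConvR chow 1 and 2, 30 of 116 did. The 73 of them that are printed or had an unadjusted p below 0.05 were followed under every alternative: 912 values kept their direction and side of the threshold, 68 passed it only under the alternative, 40 no longer passed it and 15 changed sign. On TPM the sign changed for HF/HS against chow in ConvR mice of Cyp2r1 (0.056), Cyp4f13 (0.14) and Cyp2d9 (0.080), for Cyp2r1 in ConvR against GF on HF/HS (0.078) and for the interaction of Cyp2d34 (0.21). The other changes of sign were in differences near 0 on leaving out libraries: the Cyp2d34 interaction ran from -0.19 to 0.090 without 1 library, Cyp2e1 between diets from -0.0503 to 0.050 in ConvR mice (-0.036 without ConvR chow 1 and 2) and from -0.049 to 0.24 in GF mice, and Cyp2a22 between diets in GF mice from -0.19 to 0.20. The cause was not tested. With a replicate block the counts were 1, 0, 3, 0, 4, 0 and 0 in the order above; between diets in ConvR mice Cyp2g1 was lost (adjusted p = 0.0504), Cyp4v3 was gained and 3 of the 4 were shared. Correlations of deviations between same-numbered libraries ran from -0.232 to 0.245 over the 6 pairwise comparisons. The lowest within a comparison was -0.232 to 0.0709. No pairing by number was seen across all libraries of a comparison, but these few values cannot exclude one. Depth limits the genes below 1 TPM, where single counts move the fold change.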
